A study of Mus musculus with 2 samples.

Results

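Genes that move and hold zinc and copper were described in the fetal mouse liver. They were chosen by name as the metallothioneins Mt1 to Mt4, their regulator Mtf1, all numbered members of the zinc transporter families Slc30a and Slc39a, and 7 copper genes (Cp, Atp7a, Atp7b, Slc31a1, Slc31a2, Atox1 and Ccs). All genes the rule names in the annotation, 36 of 43346 Ensembl genes in the tables, were found. The samples were livers of B6NCrl mouse embryos at embryonic day 16.5, with male and female embryos pooled, and their total RNA was sequenced. They formed 1 group of 2 libraries, called biological replicates in the labels, which give 41 embryos for the replicate 2 pool and 1 shared donor identifier. The labels name no mutation or treatment, and the samples hold no second condition, so no test between conditions and no p-value is given. The n of 2 measures only the spread between these pools.

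Zinc and copper are needed by many enzymes and are harmful when free, so cells keep nearly all of both bound to proteins. Zinc enters the cytosol through Slc39a (ZIP) carriers and leaves it, for the blood or for organelles, through Slc30a (ZnT) carriers. Metallothioneins hold zinc and copper in clusters of cysteine residues, and their genes are switched on by Mtf1, a zinc-sensing factor that binds metal response elements. Copper enters through Slc31a1, is passed by Atox1 and Ccs to its users, is pumped by Atp7a and Atp7b, and leaves the liver in ceruloplasmin (Cp) or in bile. The fetal liver is also the main blood-forming organ at this stage, and rodent fetal liver is known for its high metallothionein content.

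Expected counts on Ensembl genes summed to 43364573 in replicate 1 and 47263435 in replicate 2. All 8 hepatocyte markers and all 7 erythroid markers reached 1 TPM (a measure of the share of all transcripts that a gene holds, with reads divided by transcript length) in each library, and so did all macrophage, endothelial and stellate markers. Markers of pancreas were higher in replicate 2, at a summed 4.82 TPM in replicate 1 and 44.12 TPM in replicate 2. Of these 8 markers 2 reached 1 TPM in both libraries, and Ins2, Prss1 and Ins1 did so in replicate 2 only. Intestinal markers summed to 8.51 and 17.0 TPM. Cdx1 and Cdx2, which define intestinal epithelium, were listed at 0 in replicate 1 and at 0.31 and 0.15 TPM in replicate 2. Of the 6 intestinal markers 1 reached 1 TPM in both libraries, and Vil1 did so in replicate 2 only. Brain markers had 1 of 7, Gfap, and skin markers 0 of 6 at that level. In such tissue RNA, fewer cells of a type and less RNA per cell cannot be told apart.

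Of the 36 genes, 27 (75.0%) reached 1 TPM in both libraries, where 52.2% of 21474 protein-coding genes did. A level of 10 TPM was reached in each library by 18 of the 36, where 26.4% of protein-coding genes did. As TPM is scaled by transcript length, levels of different genes can be set side by side. The 9 genes below 1 TPM in both libraries were Mt3, Mt4, Slc30a1, Slc30a2, Slc30a3, Slc30a4, Slc30a8, Slc39a2 and Slc39a12. All 7 copper genes and 12 of 14 Slc39a genes passed 1 TPM, against 5 of 10 Slc30a genes and 2 of 4 metallothioneins. The median TPM of the 36 genes was 10.3 in replicate 1 and 11.7 in replicate 2, and that of all protein-coding genes was 1.41 and 1.57.

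**Figure D1:**
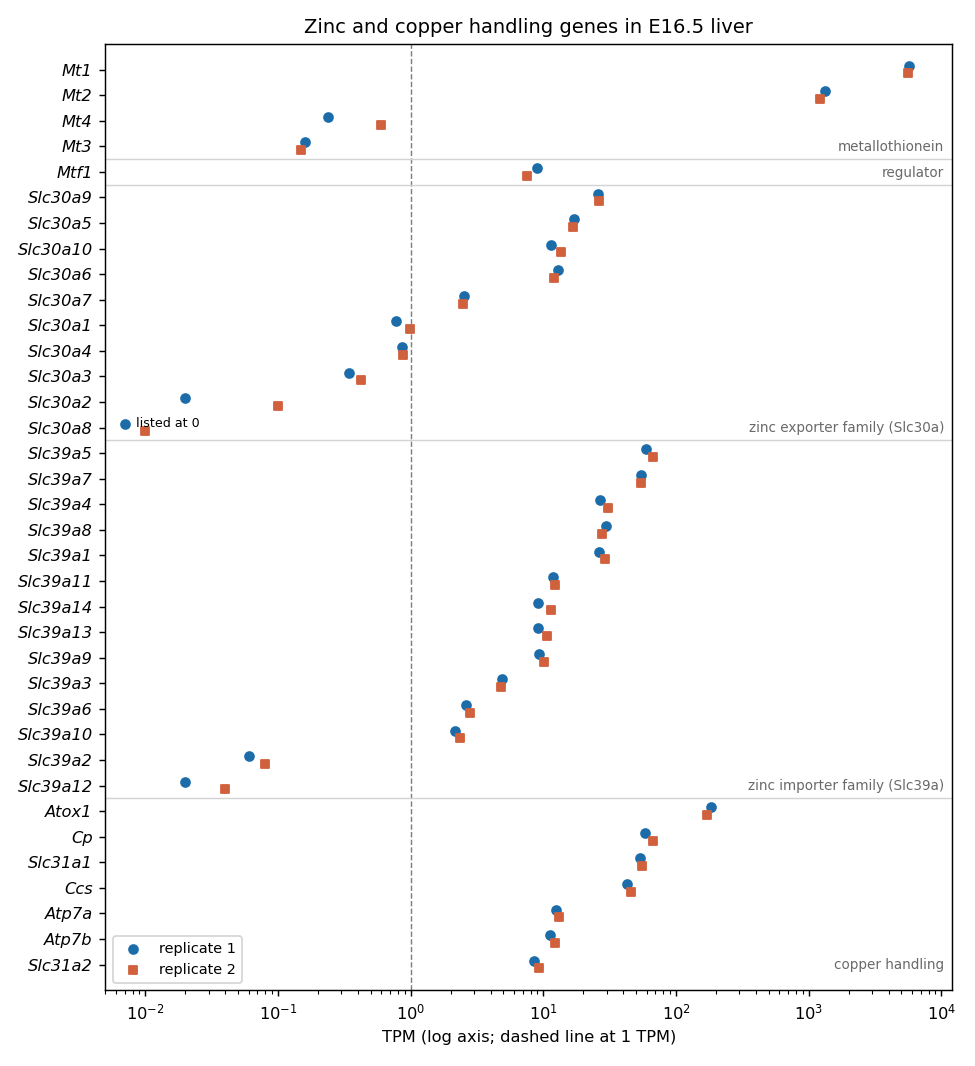
TPM of each zinc and copper gene on a log axis, by family, with a circle for replicate 1 and a square for replicate 2; the point for Slc30a8 in replicate 1, listed at 0, is drawn at the left edge. Mt1 and Mt2 stand above 1000 TPM, 27 of 36 genes stand right of the 1 TPM line in both libraries, and the points of 1 gene lie close together except among the lowest genes.

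Mt1 and Mt2, the metallothioneins made in most tissues, were by far the most abundant of the 36. Mt1 stood at 5726 TPM in replicate 1 and 5588 TPM in replicate 2, from 106297 and 112084 expected counts, which ranked it 10 among protein-coding genes. Mt2 stood at 1332 and 1215 TPM, from 25635 and 25257 expected counts, and ranked 42. Both libraries thus agree to within a small part of each level, and the lower library of Mt2 lies above every other gene of the set except Mt1. Together these genes held 91.0% of the summed TPM of the 36 genes in replicate 1 and 90.5% in replicate 2. All 4 metallothioneins summed to 0.706% and 0.680% of all TPM, or 0.693% ± 0.018 (SD, n = 2). As their transcripts are short, they took only 0.297% ± 0.010 (SD, n = 2) of expected counts.

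Mt1 exceeded Mt2 by 4.30-fold in TPM in replicate 1 and by 4.60-fold in replicate 2, or 4.45 ± 0.21 (SD, n = 2). Taken from expected counts the ratio was 4.15 and 4.44. The gap between the genes was far larger than the spread between libraries. Mt1 lies at chr8:94179082-94180327 and Mt2 at chr8:94172664-94173568, both on the plus strand of GRCm38, and 5513 bases separate them. Each has 1 annotated transcript, of 540 nt for Mt1 and 556 nt for Mt2, and both genes' counts were whole, which gives no sign that reads were divided between these related genes. An annotated antisense gene, Gm45774, shares 432 exon bases with Mt2 and has no entry in the tables. Reads of the 2 strands could not be told apart there.

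The other metallothioneins lie in the same cluster, which spans 43131 bases from Mt4 through Mt3 and Mt2 to Mt1. Mt3, known from brain, had 3 expected counts in each library, or 0.16 TPM in replicate 1 and 0.15 TPM in replicate 2. Mt4, known from squamous epithelium, had 3 and 8 expected counts, or 0.24 and 0.60 TPM. Counts of 3 and 8 have exact 95% Poisson intervals of 0.619 to 8.77 and 3.45 to 15.8, which overlap and cover counting error only. Both values rest on a few reads. Brain markers summed to 7.04 and 8.28 TPM, most of it Gfap at 6.47 and 7.23 TPM. Gfap is not confined to brain, and the other 6 stood below 1 TPM in both libraries, with Slc17a7 at 0 in both. Skin markers summed to 1.12 and 1.19 TPM. Their part in the Mt3 and Mt4 counts was not tested.

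The coding sequences of the abundant pair are printed because they carry the feature that lets these proteins bind metal. Capitals mark the cysteine codons TGC and TGT, and the stop codon is left out (GENCODE M21 transcripts, GRCm38; the codons lie on 3 exons between chr8:94179311-94180190 for Mt1 and chr8:94172848-94173424 for Mt2).
Mt1: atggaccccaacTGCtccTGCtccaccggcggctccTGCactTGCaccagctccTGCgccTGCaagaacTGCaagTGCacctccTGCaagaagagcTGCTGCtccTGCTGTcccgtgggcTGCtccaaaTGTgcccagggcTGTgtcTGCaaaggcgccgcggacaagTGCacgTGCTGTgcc
Mt2: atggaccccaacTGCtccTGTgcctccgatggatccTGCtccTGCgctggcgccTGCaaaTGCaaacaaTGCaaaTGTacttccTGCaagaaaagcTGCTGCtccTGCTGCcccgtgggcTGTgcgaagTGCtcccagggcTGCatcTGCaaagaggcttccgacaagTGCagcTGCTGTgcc
Both coding sequences have 183 bases, of which 145 (79.2%) are the same. Each holds 20 cysteine codons among 61, and all 20 stand at the same positions in both. The scarce members of the cluster have as many, 20 of 68 codons in Mt3 and 20 of 62 in Mt4. None of the 4 holds a histidine codon.

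The bases before the RefSeq starts of Mt1 and Mt2 are printed because Mtf1 is known to bind metal response elements in their promoters. Capitals mark each match, on either strand, to the core of that element, TGCACNC or TGCGCNC. The sequences are RefSeq's, of assembly GRCm38.p6, plus strand, with base 1 at the RefSeq start, and the second line of each gene runs from the start to its last match.
Mt1 promoter, chr8:94178839-94179088: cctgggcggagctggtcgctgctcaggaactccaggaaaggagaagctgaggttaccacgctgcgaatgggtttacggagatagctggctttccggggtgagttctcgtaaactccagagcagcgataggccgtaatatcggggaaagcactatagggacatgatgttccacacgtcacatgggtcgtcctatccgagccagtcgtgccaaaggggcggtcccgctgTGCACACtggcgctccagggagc
Mt1 from its start, chr8:94179089-94179115: tcTGCACTCcgcccgaaaagTGCGCTC
Mt2 promoter, chr8:94172368-94172617: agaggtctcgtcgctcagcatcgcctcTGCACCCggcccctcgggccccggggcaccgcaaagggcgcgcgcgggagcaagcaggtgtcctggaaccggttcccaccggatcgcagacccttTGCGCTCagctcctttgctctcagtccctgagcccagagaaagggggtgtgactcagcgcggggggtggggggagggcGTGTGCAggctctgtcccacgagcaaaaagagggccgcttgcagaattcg
Mt2 from its start, chr8:94172618-94172628: ggtcGTGCGCA
Within the window searched Mt1 had 3 matches, 1 before its RefSeq start at bases -23 to -17 and the others at bases 3 to 9 and 21 to 27. Mt2 had 4 matches, beginning at bases -223, -128, -50 and 5. The annotated start sites of RefSeq and GENCODE differ for both genes, with GENCODE's 7 bases earlier for Mt1 and 46 bases later for Mt2. Where these transcripts begin in this liver was not measured. The windows searched end at chr8:94179138 for Mt1 and chr8:94172667 for Mt2, before the coding sequences, which begin at chr8:94179311 and chr8:94172848. Elements between these points would be missed. If transcripts begin there, matches placed after the RefSeq start would lie before the start in use.

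RefSeq windows from 250 bases before to 50 after a start were matched by symbol for 31 of the 36 genes. Ccs, Slc30a8, Slc39a4, Slc39a6 and Slc39a14 had no match. The core was found in at least 1 window of 18 of the 31 genes (58.1%), and in 28.2% of 26994 genes with such windows. Within the 100 bases before the start it was found for 10 of the 31 (32.3%) and for 12.3% of all genes. Mt2 alone among the 31 held 4 matches, a number that 0.518% of all 32817 windows reached. A match is a stretch of letters and not evidence of binding. The core was found for 12 of 23 genes that reached 1 TPM in each library and for 6 of 8 below. Those 6 include Mt3, Mt4 and the zinc exporter Slc30a1. The part of the core in the levels of these genes was not tested. Atox1, Cp and Mtf1 held none of these letters in the window.

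**Figure D2:**
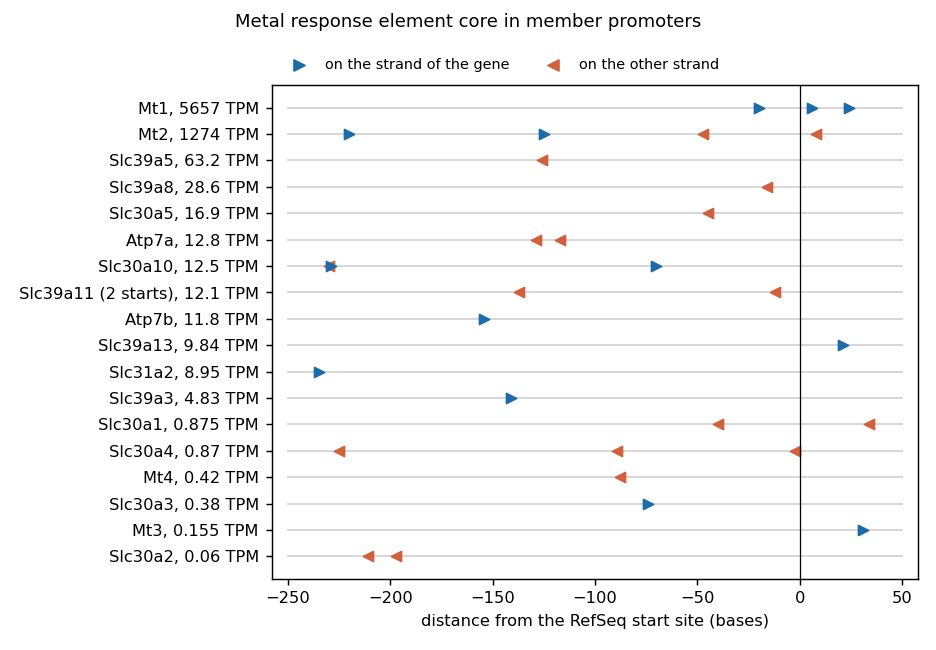
Position of each metal response element core in the RefSeq promoters of the 18 genes that hold 1, as distance in bases from the start site, with genes in order of mean TPM. Arrows pointing right are on the strand of the gene and arrows pointing left on the other strand. Mt2 has 4 matches and Mt1 has 3, and genes of low level such as Slc30a4 also hold the core.

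Mtf1, the zinc-sensing factor that activates the metallothionein genes, was expressed at a moderate level. It stood at 8.94 TPM in replicate 1 and 7.48 TPM in replicate 2. Most of that TPM belonged to a retained-intron transcript of 781 nt at the 5′ end of the gene, which held 74.9% and 74.2% of it. The full coding transcript of 7631 nt stood at 1.62 and 1.63 TPM, yet it held 66.0% and 75.6% of the gene's expected counts. All coding transcripts of Mtf1 summed to 2.25 and 1.93 TPM. The level of the regulator therefore depends on which transcripts are counted, although it passed 1 TPM either way. Mtf1 also shares 721 exon bases with 1110065P20Rik on the opposite strand, and its expected counts were not whole, so reads may have been divided between these genes.

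Zinc importers of the Slc39a family summed to 245.5 TPM in replicate 1 and 263.2 TPM in replicate 2. Zinc exporters of the Slc30a family summed to 71.7 and 73.3 TPM. The ratio of the sums was 3.43 and 3.59, or 3.51 ± 0.12 (SD, n = 2). From expected counts it was 2.34 and 2.38. Importer transcripts thus outweighed exporter transcripts in both libraries on both scales, with a smaller margin in counts. Transport activity was not measured, and members of both families also serve organelles or carry other metals.

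Slc39a5 (chr10:128395931-128401229), a carrier of the basolateral membrane known from pancreas, intestine and liver, was the most abundant importer. It stood at 59.5 TPM in replicate 1 and 66.8 TPM in replicate 2, which was 24.2% and 25.4% of importer TPM. The libraries' deposited intervals did not overlap, with replicate 2 higher by 0.15 on the centred log2 scale explained below. The pancreas markers were also higher in replicate 2, with Ins2 at 0.90 TPM in replicate 1 and 18.9 TPM in replicate 2 and Cpa1 at 1.82 and 9.10 TPM, while Pdx1, which defines pancreas, was listed at 0 in replicate 1 and at 0.07 TPM in replicate 2. Hepatocyte markers were higher there too, 6 of 8 of them, with a median of 0.12 on the same scale. The part of either list in the Slc39a5 difference was not tested. Slc39a5 was the leading importer in TPM in replicate 1 alone as well. By expected counts Slc39a7 led in replicate 1, at 4886 against 4622 for Slc39a5.

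Slc39a7, which releases zinc from the endoplasmic reticulum to the cytosol, stood at 54.2 TPM in replicate 1 and 54.3 TPM in replicate 2. It differed least between the libraries of all importers. It shares 2084 exon bases on the same strand with Gm20427, to which 76.2 and 265 expected counts were given, against 4886 and 5285 given to Slc39a7. Slc39a8, a carrier of zinc and manganese, stood at 29.8 and 27.5 TPM. Slc39a4, known as the carrier for zinc absorption in the intestine and from the yolk sac, stood at 26.6 and 30.9 TPM. Slc39a1, a widely expressed carrier of the plasma membrane, stood at 26.4 and 29.2 TPM. The order of Slc39a4, Slc39a8 and Slc39a1 is not set by these data, since their ranges over the libraries overlap. Slc39a4 was higher in replicate 2 with intervals that did not overlap. The intestinal markers, Lgr5 excepted, were also higher in TPM there, with Fabp2 at 7.27 TPM in replicate 1 and 14.4 TPM in replicate 2. Lgr5 stood at 0.63 and 0.55 TPM. Hepatocyte markers were higher there too, 6 of 8 of them, with a median of 0.12 on the centred log2 scale. The part of either list in the Slc39a4 difference was not tested.

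Slc39a11, a more distant member of the family, stood at 11.9 TPM in replicate 1 and 12.3 TPM in replicate 2. Slc39a14, which brings zinc, manganese and iron into hepatocytes, stood at 9.11 and 11.4 TPM. Of its 13 annotated transcripts a retained-intron transcript of 1398 nt led with 44.4% and 53.0% of the gene's TPM, and coding transcripts summed to only 3.51 and 3.85 TPM. By expected counts this retained-intron transcript held 35.7% and 43.2%, against 37.5% and 34.3% for a coding transcript of 4926 nt. Slc39a13 and Slc39a9, both carriers of the secretory pathway, ranged from 9.04 to 10.6 TPM and from 9.32 to 10.1 TPM. On the opposite strand Slc39a13 shares 215 exon bases with Psmc3 and Slc39a9 shares 459 with Erh. Psmc3 had 7355 and 7711 expected counts, against 583 and 751 for Slc39a13. Erh had 6865 and 5675, against 2013 and 2347 for Slc39a9. Counts of both carriers were not whole, so reads may have been divided. Slc39a3, Slc39a6 and Slc39a10 were lower than these carriers, between 2.14 and 4.88 TPM. Slc39a6 and Slc39a10, known to form a joint carrier, stood at 2.59 and 2.81 TPM and at 2.14 and 2.34 TPM. Slc39a2, known from skin, had 5.39 and 8 expected counts, and it shares 151 exon bases on the same strand with Mettl17. Slc39a12, known from brain, had 2 and 4 expected counts. Slc39a5, Slc39a7, Slc39a4 and Slc39a8 together held 69.3% of the family's TPM in replicate 1 and 68.2% in replicate 2.

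Among the exporters Slc30a9 (chr5:67306955-67358443), known for moving zinc out of mitochondria, was the most abundant. It stood at 25.8 TPM in replicate 1 and 26.1 TPM in replicate 2, which was 35.9% and 35.6% of exporter TPM. Slc30a5 stood at 17.1 and 16.8 TPM. Its partner Slc30a6 stood at 12.9 and 12.0 TPM, and both are known to load zinc together into enzymes of the early secretory pathway. The ratio of Slc30a5 to Slc30a6 was 1.36 ± 0.05 in TPM (SD, n = 2), and from expected counts it was 1.99 and 2.09. Slc30a7, which serves the Golgi, was lower, at 2.52 and 2.48 TPM. These 4 exporters of organelles differed little between libraries, and their deposited intervals overlapped.

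Slc30a10, a family member known as a manganese exporter of liver and brain, stood at 11.4 TPM in replicate 1 and 13.6 TPM in replicate 2. It was the only exporter whose intervals did not overlap between libraries. Slc30a10 shares 533 exon bases with the antisense gene Gm2061, which had 122 and 96.5 expected counts against 2763 and 3553 for Slc30a10. Slc30a1, the zinc exporter of the plasma membrane and a known target of Mtf1, stood just below the threshold at 0.77 and 0.98 TPM, from 166 and 229 expected counts. Slc30a4 stood at 0.86 and 0.88 TPM, and its level did not separate from that of Slc30a1. Slc30a1 thus stood below all 4 exporters of organelles named above, the lowest of which was Slc30a7. Slc30a3, known from synaptic vesicles, stood at 0.34 and 0.42 TPM. Slc30a2, known from exocrine pancreas and mammary gland, had 3 and 12 expected counts. Slc30a8, which fills insulin granules with zinc, had 0 counts in replicate 1 and 1 in replicate 2. A count of 0 allows up to 0.0381 TPM in replicate 1, taking 3 counts as the limit, and the 1 count in replicate 2 is also below 3, so both libraries lie under the limit of detection used here. Slc30a2 was low where the pancreas markers were low and had more counts where they were higher; their part in its counts was not tested.

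Of the copper genes Atox1 (chr11:55446641-55461239, minus strand), the chaperone that hands copper to the Atp7 pumps, was the most abundant. It stood at 182 TPM in replicate 1 and 170 TPM in replicate 2 and ranked 481 among protein-coding genes. Ccs, the chaperone that loads copper into superoxide dismutase, stood at 43.0 and 45.4 TPM. Atox1 exceeded Ccs by 4.24-fold and 3.75-fold in TPM, a ratio of 3.99 ± 0.34 (SD, n = 2). From expected counts that ratio was 1.95 and 1.73. Both chaperones ranged above both pumps in TPM in both libraries. In expected counts Ccs, at 1733 and 1978, lay below both pumps. Atox1 lay below Atp7b in replicate 2 on that scale, at 3419 against 3573.

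Slc31a1 (chr4:62360727-62391769), the high-affinity copper importer of the cell surface, stood at 53.2 TPM in replicate 1 and 55.6 TPM in replicate 2. Slc31a2, its relative of internal membranes, stood at 8.57 and 9.33 TPM. The ratio of Slc31a1 to Slc31a2 was 6.08 ± 0.18 in TPM (SD, n = 2), and from expected counts it was 13.1 and 12.5. The Slc31a1 level did not separate from that of the zinc importer Slc39a7.

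Atp7a and Atp7b pump copper into the secretory pathway and out of the cell; Atp7b is the pump of the adult hepatocyte and Atp7a that of most other tissues. Atp7a (chrX:106027276-106124926) stood at 12.4 TPM in replicate 1 and 13.1 TPM in replicate 2. Atp7b (chr8:21992785-22060305) stood at 11.3 and 12.3 TPM. The ratio of Atp7a to Atp7b was 1.10 and 1.07 in TPM, and from expected counts 0.776 and 0.750. Which of these pumps ranked higher thus depended on the scale. In TPM the lower library of Atp7a stood just above the higher of Atp7b, and with coding transcripts only, at 11.5 and 12.1 TPM for Atp7a, the ranges overlapped. Atp7a also had close coding transcripts of 4866 and 4900 nt, of which the shorter held 51.7% of the gene's TPM in replicate 1 and 41.0% in replicate 2, and the longer 40.6% and 51.4%. Atp7a was the 1 gene of the 18 with several transcripts whose leading transcript differed between libraries.

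Cp (chr3:19957054-20009145), the ceruloplasmin gene, encodes the copper oxidase that carries most copper in adult plasma. It stood at 58.4 TPM in replicate 1 and 66.8 TPM in replicate 2, with replicate 2 higher and intervals that did not overlap. The centred log2 ratio of Cp was 0.17, beside the median of 0.12 for the hepatocyte markers, whose part in the Cp difference was not tested. Cp has 16 annotated transcripts, and a coding transcript of 4029 nt led with 45.6% and 50.4% of its TPM. Coding transcripts together held 86.3% and 86.7%. Cp shares 108 exon bases with Hps3 on the opposite strand.

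The copper-binding sites of the chaperones and pumps are printed as examples because all of these genes hold the same short motif. The site was searched as ATG, any codon, a cysteine codon, any pair of codons and another cysteine codon, and capitals mark the cysteine codons (GENCODE M21 transcripts, GRCm38, on the strand of the gene).
Atox1, chr11:55454918-55454935: atgaccTGTgagggcTGT
Ccs, chr19:4838868-4838885: atgagtTGTcagagcTGT
Atp7a, its last site, chrX:106094862-106094879: atgacgTGTgcttccTGT
Atp7b, its last site, chr8:22018184-22018201: atgaccTGTgcttccTGT
Atox1 and Ccs each held 1 such site, beginning at codon 10 and codon 20. Atp7a held 6 and Atp7b 5, and none of the metallothioneins held 1.

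**Figure D3:**
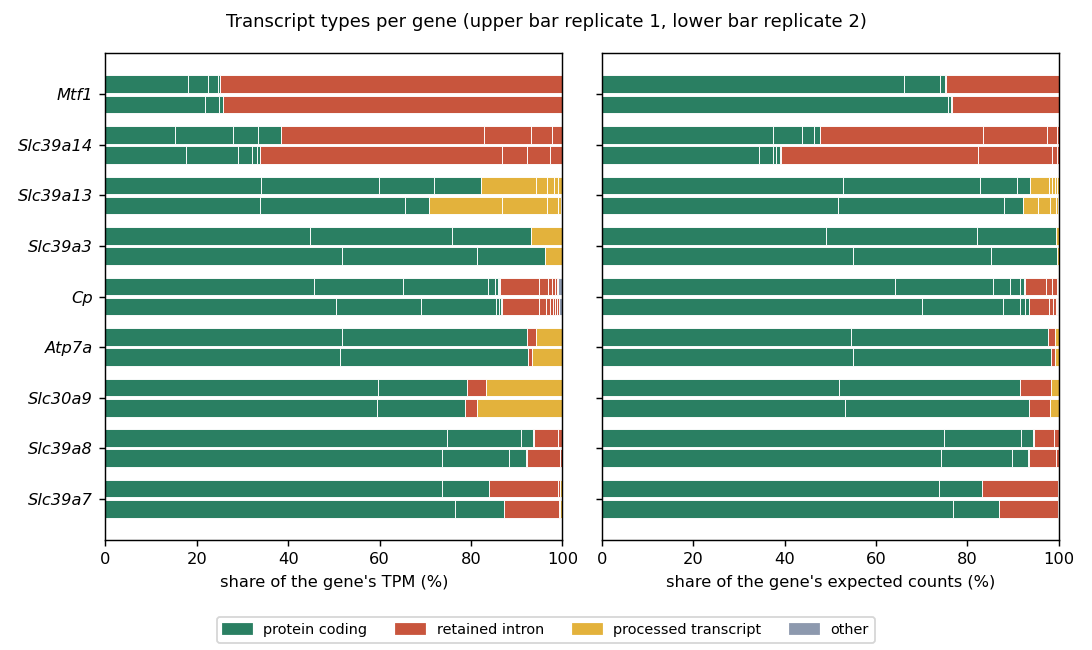
Share of each gene's TPM (left, percent) and expected counts (right, percent) held by its annotated transcripts, coloured by transcript type, for 9 genes with several transcripts chosen for the plot after their values were seen; the upper bar is replicate 1 and the lower bar replicate 2. Retained-intron transcripts hold 74.9% and 74.2% of Mtf1 TPM but 24.8% and 23.3% of its expected counts.

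At transcript level, 9 of the 27 genes that passed the 1 TPM level had 1 annotated transcript and 18 had several. In 13 of these 18 the same transcript held at least 50% of the gene's TPM in both libraries, and in 7 it held at least 90%. In TPM, though not in expected counts in both libraries, Mtf1 and Slc39a14 were the 2 genes led by a transcript without a coding sequence. Slc39a5 was led by a coding transcript of 1939 nt with 93.8% and 94.0% of its TPM, and Slc39a8 by 1 of 3383 nt with 74.7% and 73.6%. For Slc30a9 a coding transcript of 2544 nt held 59.7% and 59.4%. Slc39a13, by contrast, was spread, with its leading transcript at 34.0% and 33.8%. These shares were close between libraries for most genes, but they rest on the division of reads among overlapping transcripts by the authors' program.

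To compare the replicates, 1 was added to each TPM and the value of replicate 2 was divided by that of replicate 1 on the log2 scale. The median over the 12017 genes averaging at least 100 expected counts was then set to 0. Of the 36 genes 29 entered this comparison and 0 stood 1.5-fold or more apart, where 1.13% of all genes in it did. The ratios of the 29 ran from -0.25 for Mtf1 to 0.28 for Slc39a14, and 17 were positive (15 with TMM factors and 14 with DESeq2 size factors applied to expected counts). Mtf1 and Slc39a14 were both led in TPM by a retained-intron transcript, at 6.70 and 5.56 TPM for Mtf1 and 4.05 and 6.05 TPM for Slc39a14. Their coding transcripts summed to 2.25 and 1.93 TPM and to 3.51 and 3.85 TPM. The median absolute ratio of the 29 was 0.09, against 0.11 over all genes. Deposited TPM intervals of the libraries did not overlap for 11 of the 29, with replicate 2 higher in 7, where 25.4% of all genes had such intervals. The 11 were mostly abundant genes, whose intervals are narrow. They comprised Mt1, Mt2, Atox1 and Slc39a8, lower in replicate 2, and Slc39a5, Cp, Slc31a1, Slc39a4, Slc39a1, Slc30a10 and Atp7b, higher in replicate 2. For Mt1 and Mt2 the TPM lay above its own deposited interval in both libraries (for Mt1 in replicate 1, 5726 TPM beside an interval of 5615 to 5682), so for these genes the non-overlap says only that the deposited intervals differ. These are differences between 1 library and 1 other, with no replicate check. With both libraries scaled to their spike-in RNA instead, which made up 2.50% of counts in replicate 1 and 3.19% in replicate 2, all genes shifted by a median of -0.29 and all 29 stood lower in replicate 2, so the directions above hold relative to the median gene only.

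**Figure D4:**
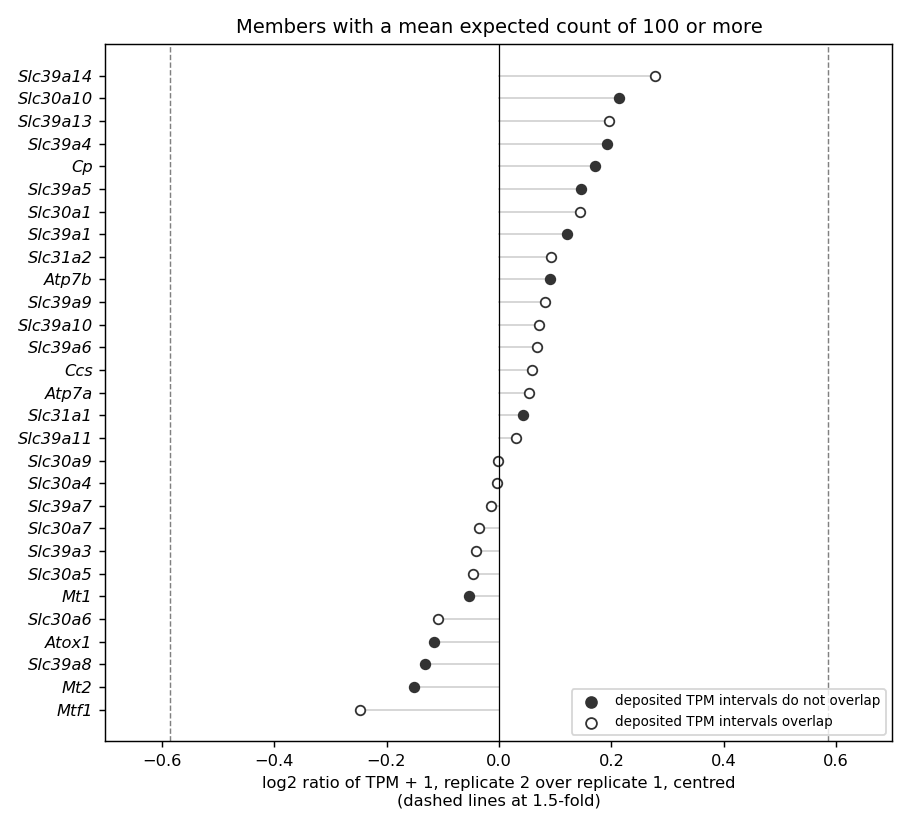
Centred log2 ratio of TPM + 1 between the libraries (positive where replicate 2 was higher) for the 29 genes averaging at least 100 expected counts; filled points mark deposited TPM intervals that do not overlap and dashed lines mark 1.5-fold. All 29 points lie between the dashed lines, from -0.25 for Mtf1 to 0.28 for Slc39a14, both led in TPM by a retained-intron transcript.

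The partners of these genes were counted from lists written from general knowledge. Each count below stands beside the 52.2% of all protein-coding genes that reached 1 TPM in both libraries. A list for copper delivery within the cell or to mitochondria held 10 genes, with Xiap and Fdx1, which are not copper carriers, among them. All 10 reached 1 TPM in both libraries. Cox17, which carries copper to cytochrome oxidase, led them with 228 TPM in replicate 1 and 183 TPM in replicate 2. The mitochondrial copper and phosphate carrier Slc25a3 stood at 161 and 162 TPM, Commd1, a partner of Atp7b, at 151 and 144 TPM, and Sco2 was lowest at 2.51 and 2.61 TPM. Cox17 thus stood beside Atox1 as an abundant chaperone of copper.

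Of 16 copper-dependent enzymes 8 reached 1 TPM in both libraries, a share near the 52.2% of all protein-coding genes. Sod1, the cytosolic superoxide dismutase that Ccs loads, stood at 919 TPM in replicate 1 and 831 TPM in replicate 2. The peptide-amidating enzyme Pam stood at 7.27 and 7.80 TPM and the secreted dismutase Sod3 at 6.73 and 8.33 TPM, while Hephl1 was listed at 0 in both libraries. Sod1 thus far exceeded its chaperone Ccs, and no other enzyme of the list came near it. All 5 metal reductases, which prepare copper and iron for uptake, reached 1 TPM in both libraries. Steap3 led at 33.8 and 37.0 TPM, Steap4 stood at 7.87 and 8.23 TPM, Steap2 at 4.58 and 4.05 TPM, and Cybrd1 was lowest at 1.36 and 1.47 TPM.

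A list of zinc enzymes held 24 genes, with Car8 and Pmm2, which are not known to need zinc, among them. Of the 24 genes 21 reached 1 TPM in both libraries. Car2, the carbonic anhydrase abundant in red cells, stood at 2139 TPM in replicate 1 and 1761 TPM in replicate 2. Alad, an enzyme of haem synthesis, stood at 455 and 462 TPM, Adh5 at 157 and 158 TPM, and Car4 had the lowest mean, at 0.09 and 0.07 TPM. Car2 and Alad are both known from red cell precursors, whose markers were also abundant, and the part of those cells was not tested. Of 8 further genes listed for zinc routes and sensing 6 reached 1 TPM in both libraries. Highest were Nfe2l2 at 36.5 and 36.0 TPM, the divalent metal carrier Slc11a2 at 35.8 and 33.0 TPM and Mtf2 at 22.1 and 21.3 TPM. Nfe2l2 and Mtf2 are neither zinc carriers nor established zinc sensors. Zfp658 was lowest at 0.26 and 0.17 TPM. All 8 genes listed as inputs to metallothionein genes, among them Mtf1 and the receptor Il6ra, reached 1 TPM in both libraries. Ctcf led them at 51.6 and 48.8 TPM, followed by Nfe2l2 and by Stat3 at 28.7 and 34.2 TPM, and Il6ra was lowest at 5.24 and 6.21 TPM. No gene of these 6 lists that entered the replicate comparison stood 1.5-fold apart, where 1.13% of all genes in it did.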

How the data were processed

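Total RNA above 200 nt, from 10 ng per library, was sequenced from 2 pools of E16.5 liver with spike-ins, per the labels. The authors deposited gene and transcript tables on mm10 with GENCODE release M4, holding expected counts (estimated, not always whole) and TPM; neither the aligner nor the version of the counting program is given in the sources used here. What level the deposited TPM intervals have is not stated, so they were compared only with each other. Symbols and coordinates came from GENCODE M21 (GRCm38), matched for 42462 of 43346 Ensembl genes. No strand-specific step is named, so antisense reads were not told apart.

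The genes and lists were chosen with earlier results of these data known. Named in full were the metallothioneins, the copper genes, the Slc30a and Slc39a genes that reached 10 TPM in each library, and the 3 highest and the lowest gene of each other list. Counts within 0.01 of a whole number were called whole. The bases after the Mt1 and Mt2 starts were added after the matches were seen. Limits for 0 use 3 counts. Reads carried no molecular identifiers, so limits and Poisson intervals cover counting error only. The ratio was tested on simulated data for 43346 genes: 99 of 100 genes changed 2-fold and 35 of 11823 unchanged genes passed 1.5-fold. The simulation gave all genes the same fixed spread and changed only genes above 100 expected counts and 5 TPM, so these rates hold for that setting. In the real libraries 1.13% of 12017 genes passed 1.5-fold. Steps used python 3.11.15 (numpy 2.4.6, pandas 2.3.3, scipy 1.17.1, matplotlib 3.10.9) and, for scaling factors only, R 4.3.3 with edgeR 4.0.16 and DESeq2 1.42.0 on rounded expected counts.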

Additional observations from a re-analysis of the deposited data

How the results depend on the processing

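The number of genes that reached 1 TPM in each library, 27, ran from 23 at a threshold of 5 TPM to 29 at 0.5 TPM or with TPM rescaled over nuclear protein-coding genes without globins. It stayed at 27 with posterior mean TPM, in either library alone, and with coding transcripts only, an alternative chosen after seeing the data. That last alternative moved 2 of the 27 levels by over 1.5 times, those of Mtf1 and Slc39a14. The metallothionein share, 0.693%, was 0.297% of expected counts and 1.33% with rescaled TPM, which raised all 27 levels by 1.92 times. The importer to exporter ratio, 3.51, was 2.36 from expected counts. The number of genes with a metal response element core, 18, was 10 within the 100 bases before the start. The number of genes led by 1 transcript at 50% or more, 13, was 14 to 17 with 1 library left out, where agreement between libraries is not asked. No gene passed the fold limit under any of the 8 other settings of the replicate comparison. The setting with a limit of 2-fold used the same ratios, so its result was fixed by that at 1.5-fold. No paired analysis was possible because there is 1 group. Depth limits Mt3, Mt4, Slc30a2, Slc30a8, Slc39a2 and Slc39a12, all at 12 expected counts or fewer.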
